A study of Mus musculus with 8 samples.

Results

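The microRNA genes of a mouse brain ribosome profiling table were examined, that is, all entries whose transcript type in the deposited table is miRNA. They comprised 2193 genes, each with a single transcript, of 45578 genes in the table. Reads were found on 798 of them in at least 1 of the 8 libraries, on 85 in all 8 libraries, and on 1395 in none. The listed transcripts are between 39 and 442 nt long, with a median of 90 nt. By name, 1179 entries are microRNA genes of RefSeq, 179 carry the name of a genomic clone, 833 carry a Gm number and 2 have another name. The clone-named and Gm-numbered entries were assigned no mature microRNA here.

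Ribosome profiling sequences the RNA fragments that survive RNase digestion of ribosomes. All brains came from the Taiwanese mouse model of SMA (spinal muscular atrophy), in which motor neurons are lost because the protein SMN is scarce, at postnatal day 5 and on the FVB background, and all mice carried the human SMN2 transgene. The study asked which messages are bound by ribosomes associated with SMN. 3 libraries came from ribosomes pelleted from healthy Smn+/-; SMN2tg/0 brains and immunoprecipitated with an antibody against SMN, and 1 library from the same kind of material immunoprecipitated with IgG as the control for unspecific binding. 2 libraries came from Smn-/-; SMN2tg/0 brains by RiboLace, a capture of translating ribosomes from clarified lysate, and 2 from polysomes of Smn-/-; SMN2tg/0 brains, pooled from a sucrose gradient and then digested. Genotype therefore differs together with protocol between the immunoprecipitates and the other libraries, and the parts of the 2 cannot be told apart. RiboLace and polysome libraries share the genotype and differ in protocol.

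MicroRNAs are cut from hairpins in long primary transcripts by Drosha with Dgcr8, and then by Dicer. A mature strand is loaded into an Argonaute protein and guides it to messenger RNAs, mostly by pairing of its seed, the bases 2 to 8. Argonaute complexes bind messages that are being translated and occur in polysome gradients. A mature microRNA is close in length to a ribosome footprint, so that a library of short RNA can hold both. SMN itself acts with the Gemin proteins in loading Sm proteins onto small nuclear RNAs, and 2 of these partners, Gemin3 (Ddx20) and Gemin4, are also known from Argonaute complexes.

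The mature sequences of the families that lead the results are shown first, with the seed in capitals, because members of a family share it. They are from RefSeq (GRCm38.p6), which gave a sequence for 1035 of the entries. The counts are per hairpin and do not tell the 5′ from the 3′ arm.
mmu-miR-9-5p: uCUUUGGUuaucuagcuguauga
mmu-miR-9-3p: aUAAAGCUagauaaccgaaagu
mmu-miR-181a-5p: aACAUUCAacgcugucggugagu
mmu-miR-181b-5p: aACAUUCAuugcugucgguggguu
mmu-let-7b-5p: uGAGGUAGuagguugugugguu
mmu-let-7c-5p: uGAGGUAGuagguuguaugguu
mmu-let-7i-5p: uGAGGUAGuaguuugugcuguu
mmu-miR-17-5p: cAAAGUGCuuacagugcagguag
mmu-miR-20a-5p: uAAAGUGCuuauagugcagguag
mmu-miR-93-5p: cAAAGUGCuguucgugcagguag
mmu-miR-125b-5p: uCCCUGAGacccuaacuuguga
mmu-miR-7a-5p: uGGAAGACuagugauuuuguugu
mmu-miR-136-5p: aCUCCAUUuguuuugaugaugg
The miR-181a and miR-181b strands share a seed, as do the 3 let-7 strands and the strands of miR-17, miR-20a and miR-93.

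The hairpins of genes that encode an identical mature strand are shown next, with the mature strands in capitals, because reads on an identical strand cannot be assigned to 1 gene. Both strands are identical among the miR-9 genes, and of the miR-181a genes the 5′ strand is. The 3 miR-9 genes lie at chr3:88215598-88215686, chr13:83738814-83738885 and chr7:79505264-79505353, and the 2 miR-181a genes at chr1:137966455-137966541 and chr2:38852735-38852810 (GRCm38.p6, all on the plus strand). Between the miR-9 hairpins 71.1 to 78.9% of aligned positions were identical, and 71.4% between those of miR-181a.
Mir9-1: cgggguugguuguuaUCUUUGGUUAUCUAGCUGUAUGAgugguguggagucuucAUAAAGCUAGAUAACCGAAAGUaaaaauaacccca
Mir9-2: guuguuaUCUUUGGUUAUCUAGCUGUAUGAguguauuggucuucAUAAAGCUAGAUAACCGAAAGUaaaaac
Mir9-3: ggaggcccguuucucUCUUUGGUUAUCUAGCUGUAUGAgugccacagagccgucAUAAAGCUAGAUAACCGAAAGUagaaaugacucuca
Mir181a-1: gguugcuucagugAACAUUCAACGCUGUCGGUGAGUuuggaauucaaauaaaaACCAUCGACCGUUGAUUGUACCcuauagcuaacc
Mir181a-2: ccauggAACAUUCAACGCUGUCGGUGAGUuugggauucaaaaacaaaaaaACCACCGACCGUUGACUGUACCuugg

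Depth differed strongly between the libraries. Counted on 1 transcript per gene, the totals were 199159, 190198 and 350023 reads in the SMN immunoprecipitates, 322626 in IgG, 69852 and 58985 in RiboLace and 1851465 and 2548966 in polysomes, a span of 43.2-fold. Markers of neurons were read in every library, at a summed level of 5588 to 8131 reads per 1000000 reads of the library (CPM), and liver markers at 0 to 33.9 CPM. Smn1 was read in all libraries but 1, also in those labelled Smn-/-, and counts per transcript do not check which part of the gene is deleted. Libraries of a group are called biological replicates in the labels, and p-values below measure the spread between them.

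MicroRNA genes took a small part of every library, largest in RiboLace and smallest in polysomes. The SMN immunoprecipitates held 1308, 1332 and 2589 microRNA reads, which is 0.657, 0.700 and 0.740% of the library. The IgG library held 2660 reads or 0.824%. RiboLace held 1392 and 1112 reads, or 1.99 and 1.89%, and polysomes held 1374 and 1913 reads, or 0.0742 and 0.0751%. Replicates of a group lay close together and the 4 groups did not overlap in this share. The exact (Clopper-Pearson) 95% intervals, which cover counting error only, ran from 1.78 to 2.10% in RiboLace and from 0.0703 to 0.0785% in polysomes. Relative to polysomes, the mean share was 26.0 times as high in RiboLace, 9.36 times in the SMN immunoprecipitates and 11.0 times in IgG.

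Between RiboLace, the immunoprecipitates and polysomes the share was lower where the depth was higher. Among the immunoprecipitates it was not: IgG, with 322626 reads, had a higher share than SMN replicates 1 and 2, with 199159 and 190198. The number of microRNA reads spanned only 2.39-fold over libraries whose totals spanned 43.2-fold, so RiboLace, the shallowest, had the highest share and polysomes, the deepest, the lowest. Within the groups the order was another: the deepest library of each replicated group had its highest share. In reads, RiboLace and polysomes overlapped, although their mean totals differed 34.2-fold. No transcript of any type had more than 4.42 reads per nt of its length in any library. The highest microRNA gene of a library had between 0.414 and 2.2 reads per nt. The sources used here do not say whether identical reads were collapsed before counting, and the part of depth or of such a step in the shares was not tested. Counted over all transcripts as deposited, the SMN share was 0.376% ± 0.057 (SD, n = 3), IgG had 0.420%, RiboLace 1.09% ± 0.057 (SD, n = 2) and polysomes 0.0387%, which is the same ranking.

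**Figure D1:**
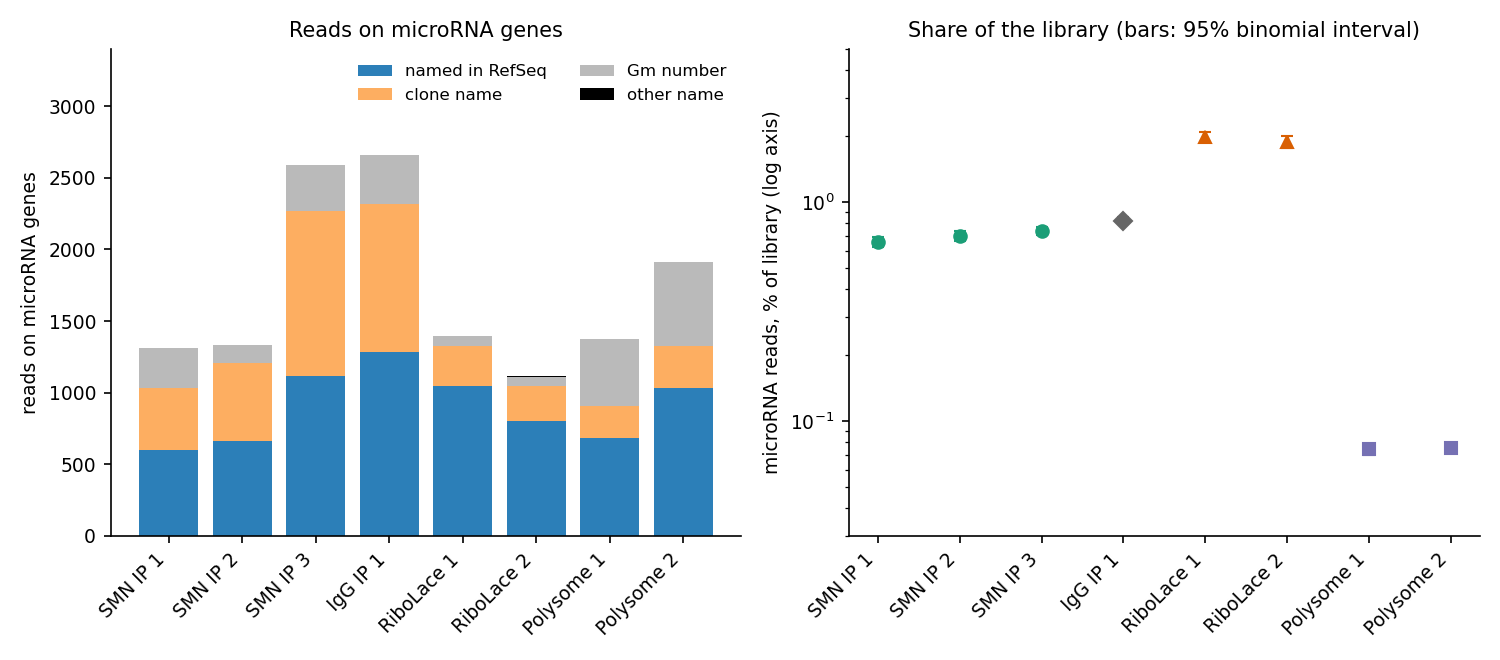
Left, reads on microRNA genes in each of the 8 libraries, stacked by how the entry is named; right, the same reads as a percentage of the library on a log axis, with 95% binomial intervals. Read numbers lie between 1112 and 2660 in every library, while the share runs from 0.0742% in a polysome library to 1.99% in a RiboLace library.

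The makeup of the microRNA reads differed between the methods. MicroRNA genes named in RefSeq held 75.3 and 72.2% of the microRNA reads in RiboLace, 49.9 and 53.9% in polysomes, 45.6, 49.7 and 43.0% in the SMN immunoprecipitates and 48.3% in IgG. Both RiboLace libraries were above all others. Clone-named entries held 33.5, 41.0 and 44.8% of microRNA reads in the SMN immunoprecipitates and 38.8% in IgG, and at most 21.8% in RiboLace and polysomes. Gm-numbered entries were highest in polysomes, with 34.2 and 30.7%, against 5.03 and 5.94% in RiboLace. As a share of the library, RefSeq-named genes were 36.9 times as high in RiboLace as in polysomes, clone-named entries 34.4 times and Gm-numbered entries 4.38 times. Other short structured RNA moved the same way: small nucleolar RNA was 10.4 times and small nuclear RNA 21.0 times as high in RiboLace as in polysomes.

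Within a group more genes were read where more was sequenced, but not between methods. A read was found on 304, 260 and 375 microRNA genes in the SMN immunoprecipitates, 409 in IgG, 327 and 298 in RiboLace and 352 and 428 in polysomes. The deeper RiboLace library thus had more genes than 2 of the SMN libraries. At the depth of the shallowest library, 58985 reads, SMN had an expected 163, 151 and 164 genes with a read, IgG 192, RiboLace 306 and 298 and polysomes 37.8 and 38.9. Many genes rested on a single read: 125 and 111 in RiboLace and 163 and 172 in polysomes. The 10 genes with most reads held 17.1 to 31.7% of a library's microRNA reads, and no gene held more than 6.80%.

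Levels of different genes were compared per kilobase of listed transcript. The 15 leading genes, by CPM per kb averaged with equal weight over the 4 groups, included 8 clone-named entries, Gm24187 and 6 RefSeq microRNA genes of the miR-9 and miR-181a families and Mir5099. 5 clone-named entries led. AC099934.2 (ENSMUSG00000106279) had 30, 55 and 76 reads in SMN, 68 in IgG, 38 and 29 in RiboLace and 4 and 3 in polysomes. AC157822.2 had 34, 50 and 79 reads in SMN, 65 in IgG, 37 and 26 in RiboLace and 5 and 4 in polysomes. Their counts ran nearly in parallel, and so did those of AC156953.1, with 30, 60, 88, 71, 38, 24, 8 and 9 reads from the first SMN to the last polysome library. At 2 more entries from the first 2 clones the order of the methods was another. AC157822.1 had 47, 59 and 176 reads in SMN, 135 in IgG, 16 and 17 in RiboLace and 14 and 17 in polysomes. AC099934.1 had 45, 46, 164, 133, 11, 12, 12 and 13 reads. Both were highest in SMN replicate 3 and in IgG, while their RiboLace and polysome reads were almost equal.

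Clone-named entries did not share 1 pattern. AC154540.1 was read 31, 31 and 76 times in SMN and 69 times in IgG, but 1 time in each RiboLace library and 2 and 0 times in polysomes. AC034285.1 was read 3, 0 and 6 times in SMN, 12 times in IgG, 24 and 29 times in RiboLace and 16 and 23 times in polysomes, and AL672160.1 gave nearly the same counts. AC154540.1 was highest in the immunoprecipitates, and AC034285.1 and AL672160.1 were highest in RiboLace in level. No sequence of these entries is held in the RefSeq table, and what RNA they record was not determined here.

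**Figure D2:**
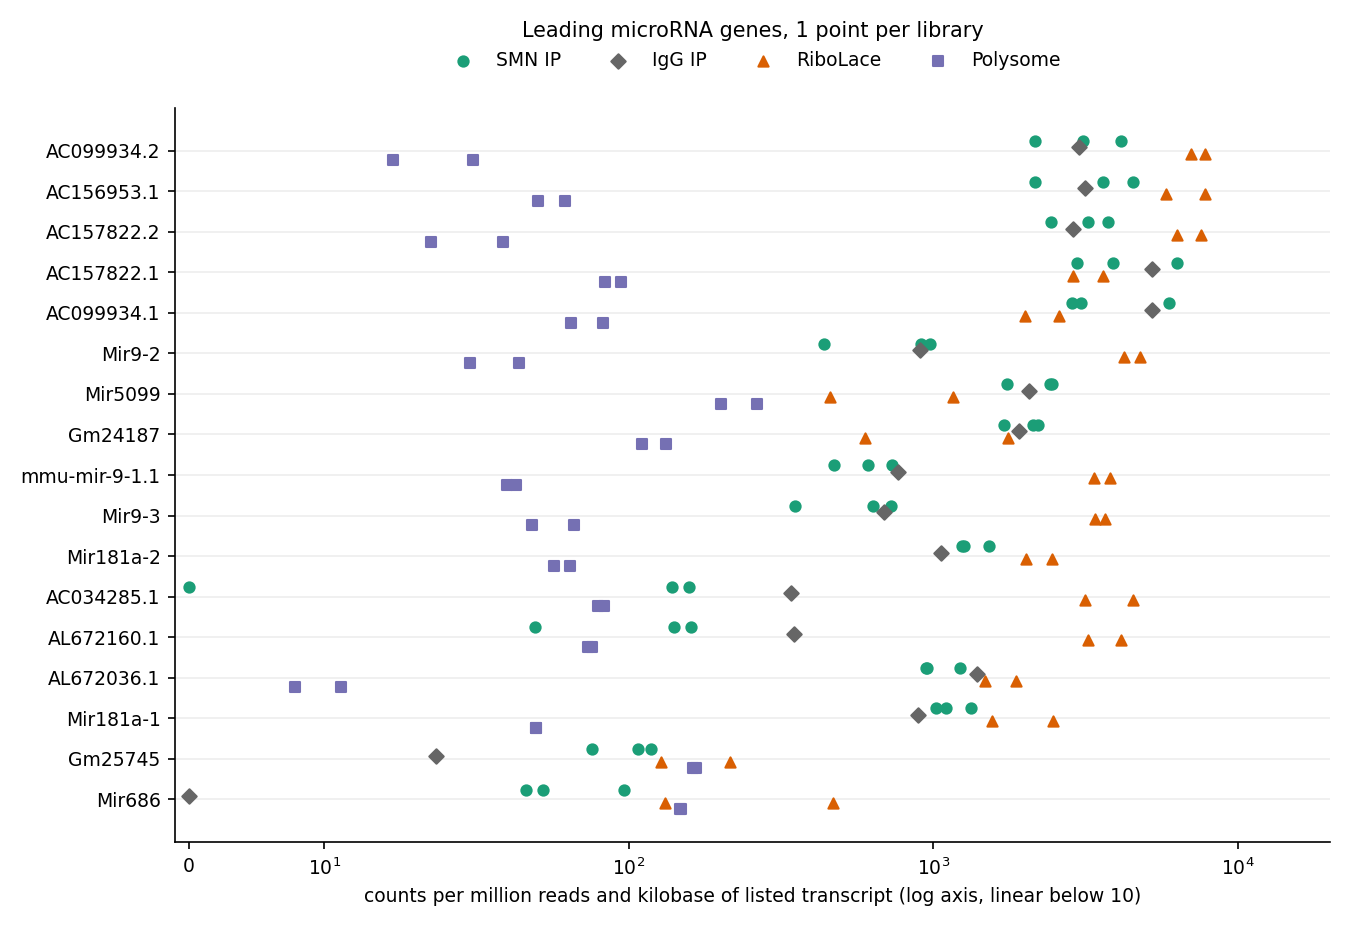
Level of the 15 leading microRNA genes and the 3 highest of each group, in CPM per kilobase of listed transcript, on an axis that is logarithmic above 10. Each point is 1 library. Polysome points lie to the left of all others except at AC034285.1, AL672160.1, Gm25745 and Mir686. RiboLace points lie to the right of all others except at AC157822.1, AC099934.1, Mir5099, Gm24187, Gm25745 and Mir686.

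miR-9, a microRNA of neural progenitors and neurons, led among the RefSeq-named genes. Mir9-2 was read 14, 6 and 23 times in SMN, 21 times in IgG, 24 and 18 times in RiboLace and 4 and 8 times in polysomes. In CPM, SMN had 70.3, 31.5 and 65.7, IgG 65.1, RiboLace 344 and 305 and polysomes 2.16 and 3.14. IgG lay within the range of the SMN libraries, both RiboLace libraries were above and both polysome libraries below. The other 2 genes had almost the same counts in most libraries: Mir9-1 (listed as mmu-mir-9-1.1) had 13, 8, 19, 22, 21, 20, 7 and 9 reads, and Mir9-3 had 13, 6, 20, 20, 23, 18, 11 and 11. Over all libraries the 3 genes had 118 to 122 reads each.

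The same held for miR-181a, which is abundant in brain and in lymphocytes. Mir181a-1 had 19, 22, 31, 25, 15, 8, 8 and 11 reads and Mir181a-2 had 19, 22, 33, 26, 13, 9, 9 and 11. Their totals were 139 and 142, and those of the miR-7a genes Mir7-1 and Mir7-2 were 97 and 98. The hairpins shown above differ outside the shared strands, and a read counted on several genes cannot be told apart from genes of equal output in these counts. Of 28 sets of genes with a shared mature strand and reads on at least 2 genes, 10 had a gene with 50 reads or more, and in 4 of these 10 the highest gene was less than 1.5 times the lowest.

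Not every such pair was equal. Mir125b-1 had 10, 12 and 15 reads in SMN and 27 in IgG, while Mir125b-2 had 3, 5 and 7 in SMN and 10 in IgG. In RiboLace both had 12 and 9 reads, and in polysomes they had 6 and 7 against 5 and 7. The pair differed in the 4 immunoprecipitates and was equal or within 1 read in the other 4 libraries. The miR-125b seed is conserved to the worm lin-4, the first microRNA described. Counting only the gene with most reads of each shared set lowered the share by little, to 0.651% ± 0.043 (SD, n = 3) in SMN, 0.762% in IgG, 1.71% ± 0.071 (SD, n = 2) in RiboLace and 0.0709% in polysomes.

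**Figure D3:**
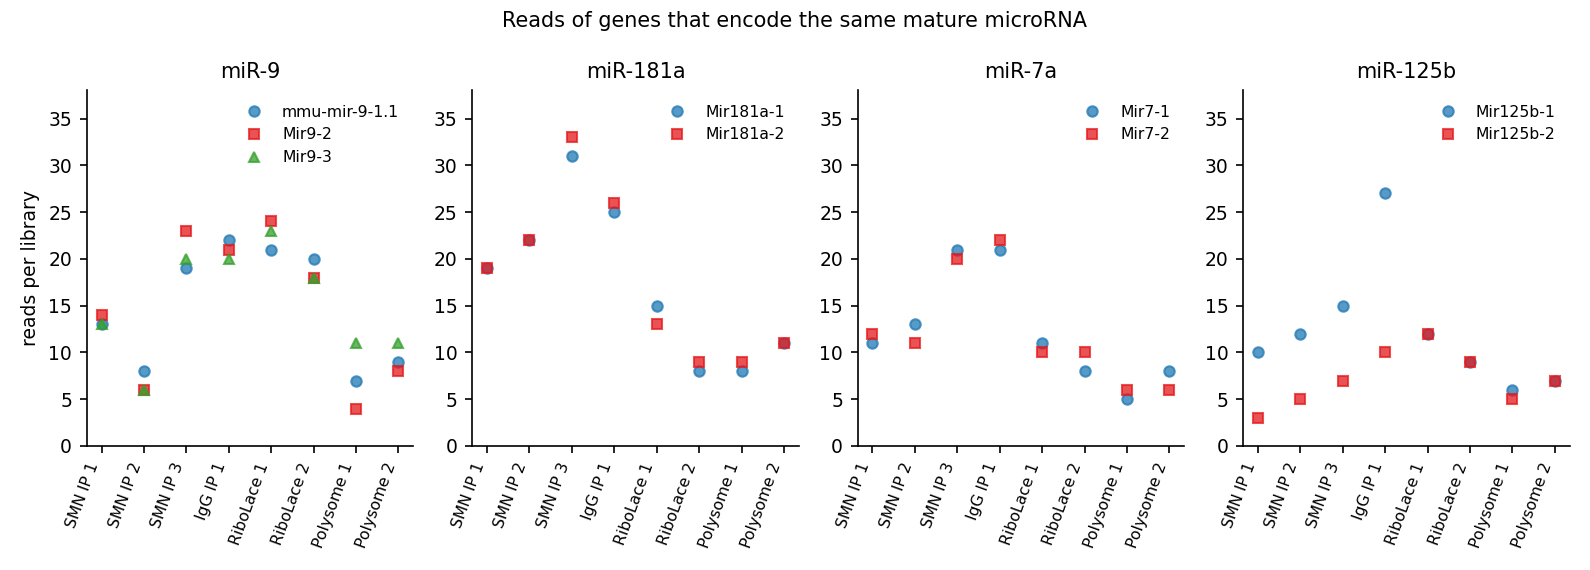
Reads per library of genes that encode the same mature strand, for miR-9, miR-181a, miR-7a and miR-125b. The points of a family nearly coincide in all panels except miR-125b, where Mir125b-1 is above Mir125b-2 in the 4 immunoprecipitates.

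The first comparison was the SMN antibody against IgG, with the same genotype and material. No microRNA gene passed the test: of 74 genes tested, 0 were called in either direction by edgeR's quasi-likelihood test with Benjamini-Hochberg adjustment over all 7312 genes tested, and 0 had an unadjusted p under 0.05. DESeq2 and limma-voom also called 0. Of all genes, 0.0137% were called in either direction and 2.72% had an unadjusted p under 0.05. With a single IgG library, the spread of IgG was taken to equal that among SMN replicates. All 3 SMN libraries exceeded IgG at 8 of the 74 genes, while this held for 23.2% of all genes tested.

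Among these genes the smallest p-values belonged to the 3 genes of miR-124, a microRNA of neurons. Mir124a-1 had 3, 3 and 9 reads in SMN against 18 in IgG, a level of 18.8 ± 5.95 CPM (SD, n = 3) against 55.8 CPM. Mir124a-3 had 3, 4 and 6 reads against 16, and Mir124a-2 had 3, 3 and 9 against 16. All SMN libraries lay below IgG. The 3 genes passed the filter only through the single IgG library, where they are high, which selects for a difference. Nothing is therefore read from their direction. For Mir124a-1 the log2 fold change was -1.48 with a standard error of 0.85, and the adjusted p was 1.00 by edgeR's quasi-likelihood test with Benjamini-Hochberg adjustment. The 3 genes encode the same strand and are not independent.

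Summed over gene lists, the SMN libraries were below IgG for several groups, which carries no test. The 46 brain-enriched genes summed to 748, 804 and 771 CPM in SMN and 1069 CPM in IgG. The 15 genes of the miR-17-92 cluster and its paralogs, which are high in dividing cells, summed to 75.3, 68.3 and 77.1 CPM against 139 CPM. The 17 genes of blood, endothelium and other cells summed to 35.1, 42.1 and 40.0 CPM against 86.8 CPM. In these 3 lists IgG was above every SMN library, by 1.38, 1.90 and 2.22 times the SMN mean. The let-7 family, with 276, 195 and 223 CPM against 282, and the genes of the imprinted Dlk1-Dio3 region, with 171, 289 and 191 CPM against 251, were closer. Other noncoding RNA moved with them: small nuclear RNA took 9.82, 10.7 and 10.8% of the SMN libraries and 13.1% of IgG, long intergenic noncoding RNA 0.664, 0.763 and 0.681% and 1.16%. Protein-coding genes took 67.0, 68.6 and 65.6% in SMN and 61.9% in IgG. The part of this difference in makeup in the microRNA values was not tested.

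The second comparison was RiboLace against polysomes, with the same genotype. 88 microRNA genes were tested. Of these, 80 passed the filter on low counts only through RiboLace, where they are high, which selects for a difference, 3 passed through both groups, 2 only through polysomes and 3 through 1 library of each. EdgeR's quasi-likelihood test with Benjamini-Hochberg adjustment called 78 higher in RiboLace and 0 lower, beside 5.6% called higher of all 13367 genes tested. Of the 78, 77 had passed only through RiboLace, and nothing is read from this count. Without RiboLace replicate 1 it was 43, without polysome replicate 1 or 2 it was 34 each, limma-voom called 51, and without a filter 208 were called. Of the 3 genes that passed through both groups 1 was called higher, and none of the 5 that passed through polysomes alone or through 1 library of each.

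The gene called among those that passed through both groups was Mir5099. It had 36, 34 and 45 reads in SMN, 49 in IgG, 6 and 2 in RiboLace and 36 and 38 in polysomes. In CPM, RiboLace had 85.9 and 33.9 and polysomes 19.4 and 14.9, without overlap. The log2 fold change was 2.03 with a standard error of 0.71 and the adjusted p was 0.043 by edgeR's quasi-likelihood test with Benjamini-Hochberg adjustment. The call was lost in 9 of 11 alternatives, in which the log2 fold change ran from 1.07 to 2.45. In the SMN libraries Mir5099 was higher than in both, at 163 ± 29.6 CPM (SD, n = 3), and IgG had 152 CPM. Its hairpin, at chr12:36816205-36816278 on the plus strand (GRCm38.p6), is shown because it is the RefSeq-named gene with most polysome reads per nt. RefSeq lists no mature strand for it in the table used, and it is in lower case throughout.
Mir5099: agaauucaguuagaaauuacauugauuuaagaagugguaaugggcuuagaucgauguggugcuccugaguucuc

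The brain-enriched list had its lowest level in polysomes, as had every other microRNA list. Its 46 genes summed to 4137 and 3815 CPM in RiboLace and 56.7 and 66.7 CPM in polysomes, a ratio of the means of 64.4. Within the reads of RefSeq-named genes, its part was 27.6 and 28.0% in RiboLace, 25.0, 23.1 and 24.3% in SMN, 26.8% in IgG and 15.3 and 16.5% in polysomes. Polysomes had the lowest part in this ratio too, which does not use the library total. Of the 20 members tested in RiboLace against polysomes 20 were called higher, beside 5.6% of all genes tested. All 20 passed the filter only through RiboLace, and nothing is read from this count. Mir9-2 had 324 ± 27.2 CPM in RiboLace and 2.65 ± 0.692 CPM in polysomes (SD, n = 2 each). The groups did not overlap. It passed the filter only through RiboLace, and its fitted log2 fold change, scaled by TMM, was 7.0 with a standard error of 0.46. Mir124a-1 had 9 and 7 reads in RiboLace and 2 and 3 in polysomes, or 129 and 119 CPM against 1.08 and 1.18 CPM.

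The let-7 family, which restrains growth and rises as neural cells mature, showed the smallest ratio of RiboLace to polysomes among the 7 microRNA lists. Its 12 genes summed to 816 and 1068 CPM in RiboLace and 41.0 and 32.6 CPM in polysomes, a ratio of 25.6. As a part of the reads of RefSeq-named genes it was 5.44 and 7.85% in RiboLace and 11.1 and 8.04% in polysomes. Mirlet7b had 9, 8 and 12 reads in SMN, 14 in IgG, 14 and 11 in RiboLace and 16 and 16 in polysomes, so that polysomes had the most reads and, for their depth, the lowest level. In CPM it was 200 and 186 in RiboLace and 8.64 and 6.28 in polysomes. The 2 let-7c genes, Mirlet7c-1 with 8 and 10 and Mirlet7c-2 with 6 and 8 reads in RiboLace, had 13 and 14 and 11 and 17 in polysomes.

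The miR-17-92 list stood further apart, with 716 and 627 CPM in RiboLace and 5.94 and 7.06 CPM in polysomes, a ratio of 103. Mir17 had 9 and 7 reads in RiboLace and 5 and 3 in polysomes, and Mir20a had 9 and 5 against 0 and 2. The 17 genes of blood, endothelium and other cells had 386 and 390 CPM against 0.540 and 2.75 CPM. Of these, Mir451a, the microRNA of red blood cells, had 6 and 8 reads in RiboLace and 1 and 3 in polysomes. Messages of blood markers, the globins among them, summed to 3608 and 4255 CPM in RiboLace and 1714 and 2332 CPM in polysomes, and their part in the level of Mir451a was not tested. In such bulk samples fewer cells of a type and less RNA per cell cannot be told apart.

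The Dlk1-Dio3 region, an imprinted region with a large microRNA cluster read from the maternal chromosome, had reads on 40 of 57 genes. They summed to 1317 and 1238 CPM in RiboLace and 18.9 and 20.4 CPM in polysomes. mmu-mir-136.1 had 2, 3 and 9 reads in SMN, 8 in IgG, 14 and 12 in RiboLace and none in either polysome library. With a floor of 3 reads over both polysome libraries it was at least 296-fold higher in RiboLace. Mir300 had 9 and 8 reads in RiboLace and 1 and 2 in polysomes. Mir541 was an exception in reads: it had 12, 17 and 15 in SMN, 17 in IgG, 5 and 4 in RiboLace and 9 and 13 in polysomes, with 69.7 ± 2.66 CPM in RiboLace and 4.98 ± 0.169 CPM in polysomes (SD, n = 2 each).

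**Figure D4:**
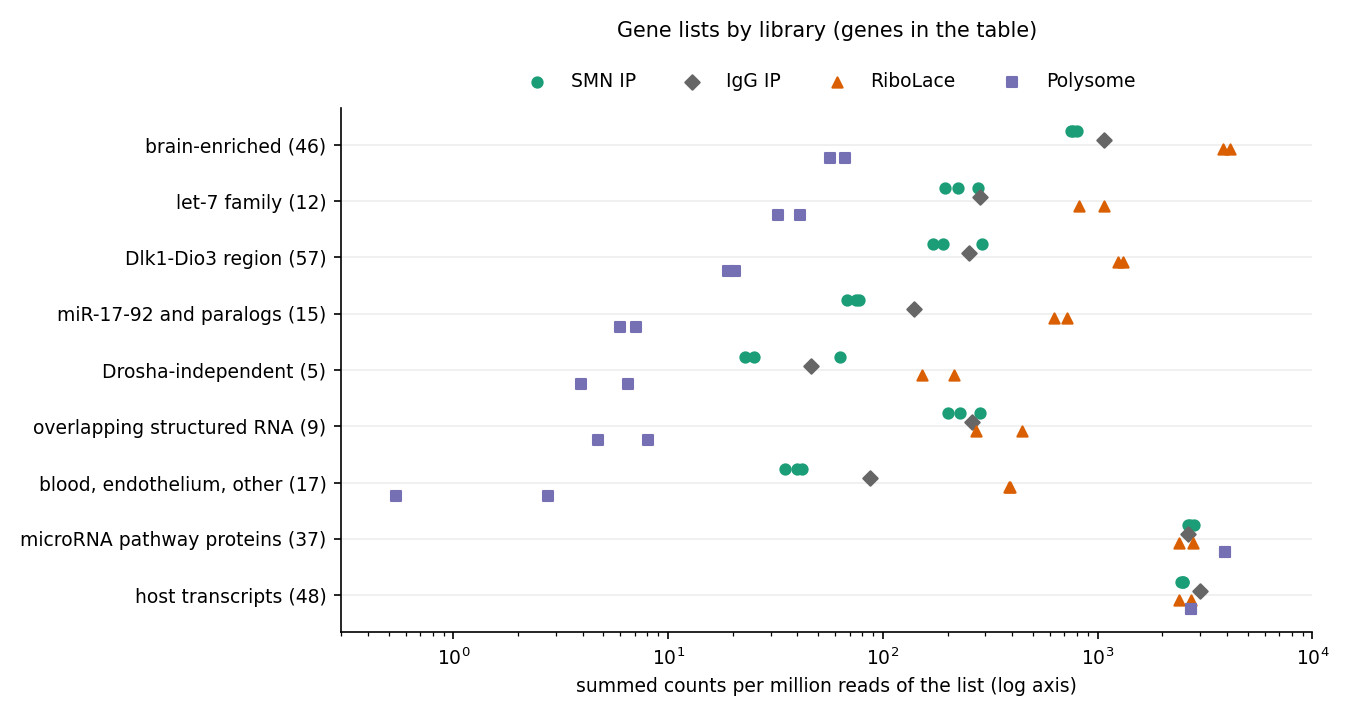
Summed level of each gene list in each library, in CPM on a log axis, with the number of listed genes in the table. The 7 microRNA lists spread over more than an order of magnitude between polysomes and RiboLace, while the lists of microRNA pathway proteins and of host transcripts do not.

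Entries outside the canonical pathway were read as well. The 5 genes processed without Drosha or from short introns summed to 215 and 153 CPM in RiboLace and 6.48 and 3.92 CPM in polysomes. Mir320 had 10 and 4 of these reads in RiboLace and 7 and 5 in polysomes. The 9 entries that overlap other structured RNA summed to 201, 284 and 229 CPM in SMN and 260 CPM in IgG. They summed to 444 and 271 CPM in RiboLace and 8.10 and 4.71 CPM in polysomes. Single entries differed: mmu-mir-3535.1 had 10, 12, 24, 25, 0, 1, 3 and 4 reads. For mmu-mir-1839.1 the reads were 1, 1, 5, 4, 11, 4, 3 and 1. mmu-mir-1291.1, which in RefSeq overlaps the small nucleolar RNA gene Snora34, had 20, 23, 36, 40, 5, 7, 4 and 4 reads. Snora34 had 21, 29, 36, 45, 6, 7, 2 and 7. The counts of the 2 entries ran in parallel in the immunoprecipitates and in RiboLace, and reads of the microRNA and of the small nucleolar RNA cannot be told apart.

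By number of reads, though mostly not by level, a group of entries was found mainly in polysomes, the deepest libraries. 35 microRNA genes had 10 reads or more in both polysome libraries. In CPM, both RiboLace libraries were above both polysome libraries at 14 of them, and all SMN libraries at 16. Both polysome libraries were above all other libraries at 3: Mir719, Gm27920 and AC117232.1. Gm27920 was only just above, with 5.94 and 6.28 CPM in polysomes. In SMN replicates 2 and 3 it had 5.26 and 5.71 CPM, from 1 and 2 reads. Mir719 had 15 and 21 reads in polysomes, 1 in SMN replicate 3, 1 in IgG and none elsewhere. A polysome level of 8.10 to 8.24 CPM is less than 1 read in a RiboLace library, so that a like level there was not detectable.

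Gm25745 and Mir686 followed Mir5099 among the polysome leaders per kilobase. Gm25745 had 2, 3 and 5 reads in SMN, 1 in IgG, 2 and 1 in RiboLace and 41 and 55 in polysomes. Mir686 had 1, 2, 2, 0, 1 and 3 reads in the first 6 libraries and 30 and 41 in polysomes. In CPM their RiboLace and polysome levels were alike within the spread, at 22.8 ± 8.26 against 21.9 ± 0.401 for Gm25745 and 32.6 ± 25.8 against 16.1 ± 0.0837 for Mir686 (SD, n = 2 each), and neither passed the test (adjusted p = 0.92 and 0.51, edgeR's quasi-likelihood test with Benjamini-Hochberg adjustment). Their reads were far higher in polysomes than elsewhere, which was not so at the miR-9 and let-7 genes.

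RefSeq places several of these polysome entries inside longer genes. Mir686 lies inside Psmb5, which encodes a proteasome subunit, on the same strand. Psmb5 had 37, 38 and 67 reads in SMN, 43 in IgG, 8 and 11 in RiboLace and 443 and 558 in polysomes. Mir719 lies in Nupl1, which encodes a nucleoporin and had 340 and 476 polysome reads. Mir8114, with 22 and 45 polysome reads and at most 2 elsewhere, overlaps part of Glul, the gene of glutamine synthetase, which had 744 and 1009. Mir682, with 29 and 24 polysome reads and at most 3 elsewhere, lies in the pseudogene Gm4149, which had 136 and 176. In CPM, Mir8114 had 0 and 33.9 in RiboLace and 11.9 and 17.7 in polysomes. Mir682 had 0 and 17.0 CPM in RiboLace and 15.7 and 9.42 CPM in polysomes. For Mir686, Mir719, Mir8114 and Mir682, reads of the host transcript and of the microRNA cannot be told apart in these counts. Of 431 RefSeq-named entries with a read, 319 lie inside a gene of another type, 169 of them inside a protein-coding gene on the same strand. The hairpins of Mir686 at chr14:54616677-54616785 and Mir682 at chr13:75645046-75645141 (GRCm38.p6, minus and plus strand) are shown for comparison with those above, with their only listed mature strand in capitals.
Mir686: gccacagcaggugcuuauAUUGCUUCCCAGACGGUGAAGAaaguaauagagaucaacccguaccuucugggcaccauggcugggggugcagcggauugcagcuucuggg
Mir682: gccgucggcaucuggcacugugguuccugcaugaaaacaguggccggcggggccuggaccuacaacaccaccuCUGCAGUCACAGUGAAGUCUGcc

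**Figure D5:**
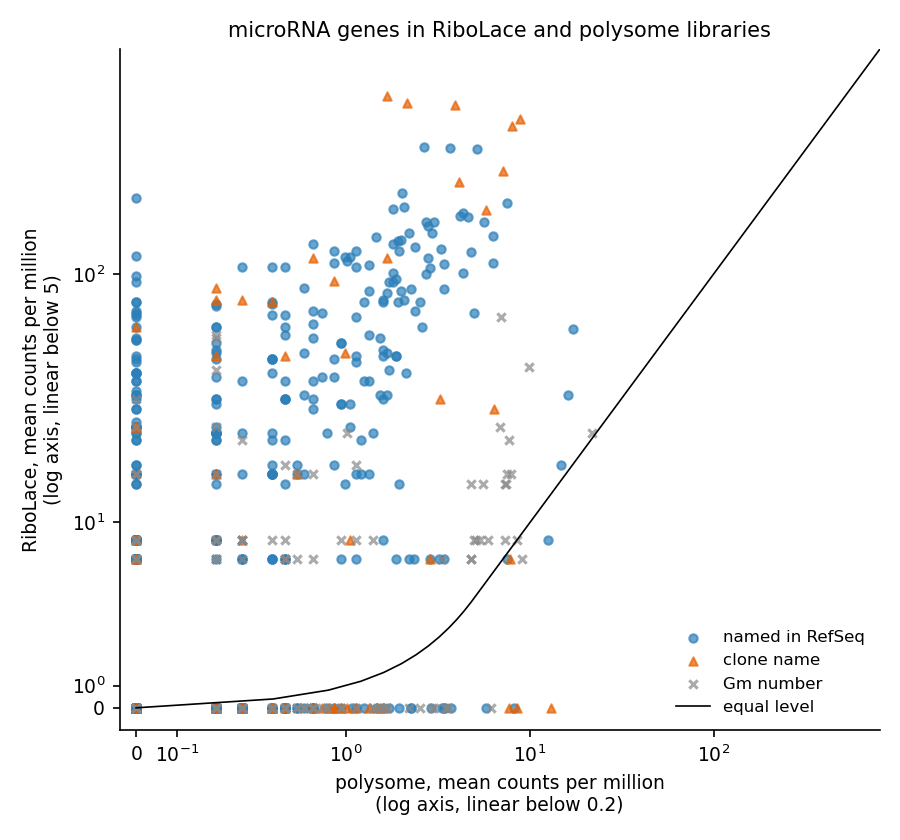
Mean level of every microRNA gene with a read in polysomes (horizontal) and RiboLace (vertical), in CPM on axes that are linear near 0, with the line of equal levels. Most RefSeq-named and clone-named genes lie above the line, and Gm25745, Mir682 and Mir8114 lie near it. Rows and columns of points near the axes are genes with 0 or 1 read.

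The third comparison was the SMN immunoprecipitate against polysomes, in which genotype and protocol differ together. Of 54 genes tested, 54 were called higher in SMN by edgeR's quasi-likelihood test with Benjamini-Hochberg adjustment, beside 21.5% called higher of all 9119 genes tested. All 54 passed the filter only through SMN, and nothing is read from the count. Without SMN replicate 1 it was 83, without replicate 2 it was 98, with a minimum count of 5 it was 106, and without a filter 178 were called higher and 2, Mir8114 and AC099760.1, lower. RiboLace and SMN were compared with the same polysome libraries, so that both sets of values share them.

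The 10 largest folds of SMN over polysomes were all of clone-named entries. AC139294.1 had 16, 17 and 25 reads in SMN, 28 in IgG, 5 and 3 in RiboLace and none in polysomes, and was at least 115-fold higher in SMN than in polysomes with the floor of 3 reads over both polysome libraries. AC141868.1, with 8, 8 and 24 reads in SMN and none in polysomes, was at least 79.4-fold higher. AC154540.1 had 179 ± 33.6 CPM in SMN (SD, n = 3) and 0.540 ± 0.764 CPM in polysomes (SD, n = 2). Its fitted log2 fold change was 8.76 with a standard error of 0.44, and no p is given because it passed the filter only through SMN. IgG had 28, 17 and 69 reads of these 3 entries. Mir181a-2, with 95.4, 116 and 94.3 CPM in SMN and 80.6 CPM in IgG, had 4.59 ± 0.386 CPM in polysomes (SD, n = 2) and a log2 fold change of 4.87 with a standard error of 0.33 against them.

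Long transcripts that hold microRNA hairpins were compared with the hairpins themselves. The 6 genes of the miR-17-92 transcript together had 9, 7 and 15 reads in SMN, 27 in IgG, 29 and 21 in RiboLace and 8 and 14 in polysomes. Their host transcript Mir17hg had 10, 9, 16, 28, 30, 23, 6 and 13. The 2 series differ by 2 reads or less in every library. Mir124a-1hg, the host of Mir124a-1, had 11, 9, 15, 28, 9, 7, 1 and 9 reads, equal to Mir124a-1 itself in RiboLace and above it in the immunoprecipitates. Rian and Meg3, long noncoding RNAs of the Dlk1-Dio3 region, had 48, 55, 141, 145, 3, 3, 46 and 57 reads and 49, 44, 54, 177, 9, 11, 127 and 155 reads. In CPM, Rian had 241, 289 and 403 in SMN, 449 in IgG, 42.9 and 50.9 in RiboLace and 24.8 and 22.4 in polysomes. Rian was thus highest in the immunoprecipitates and lowest in polysomes, while the summed microRNA genes of its region were highest in RiboLace and also lowest in polysomes. That sum includes hairpins that Rian does not hold. RefSeq places Mir370 and Mir341 inside Rian, with at most 3 reads in any library. Mir541 and Mir154 lie inside Mirg, which had 1, 3, 8, 14, 2, 1, 1 and 3 reads.

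As a list, host transcripts did not follow the microRNA genes in summed level. The list had 2391 and 2730 CPM in RiboLace and 2724 and 2706 CPM in polysomes. In SMN it had 2440, 2487 and 2491 CPM. Of 38 tested in RiboLace against polysomes 6 were called higher and 4 lower by edgeR (5.6 and 4.42% of all genes). Of 25 tested in SMN against polysomes 7 were called higher and 4 lower (21.5 and 15.7%). The 6 were Mir17hg, Mir124a-1hg, Mcm7, Mir99ahg, Mir22hg and Meg3. At least Mir17hg, Mir124a-1hg and Mcm7 passed the filter only through RiboLace, where they are high. They had 6 and 13, 1 and 9, and 11 and 14 reads in polysomes. Nothing is therefore read from the number called higher in RiboLace. Of the 6, Mcm7 holds Mir93, Mir106b and Mir25, and Mir17hg, Mir124a-1hg, Mir99ahg and Mir22hg are named as hosts. In RiboLace Mir93 had 9 and 5 reads, Mir106b 4 and 5 and Mir25 2 and 2, beside 11 and 10 on Mcm7. Reads of these hosts and of their hairpins cannot be told apart in these counts. The 4 lower were Srebf2, Rcl1, Slit3 and Nupl1.

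The messages of the microRNA machinery differed much less between the methods and were highest in polysomes. The 37 genes of processing and effector proteins summed to 2777 and 2390 CPM in RiboLace, 3923 and 3912 CPM in polysomes, 2701, 2813 and 2628 CPM in SMN and 2619 CPM in IgG. Coding genes as a whole were also highest in polysomes, with a mean of 87.4% of reads. They took 65.7% in RiboLace, 67.0% in SMN and 61.9% in IgG. The list's median log2 fold change of RiboLace over polysomes was -0.441, beside -0.335 for all genes tested. For SMN over polysomes it was -0.105, beside -0.0752. Of 34 tested in RiboLace against polysomes 0 were called higher and 4 lower, beside 5.6 and 4.42% of all genes tested. The 4 were Adar, which edits double-stranded RNA, the Drosha cofactor Ddx17, the hairpin-binding protein Khsrp and Zswim8, an adaptor in target-directed microRNA decay. Of 26 tested in SMN against polysomes 0 were called higher and 5 lower, beside 21.5 and 15.7% of all genes tested. The share called lower was near that of all genes, and nothing is read from it. None of 24 tested in SMN against IgG was called. Ago2, the slicing Argonaute, had 25, 31 and 45 reads in SMN, 31 in IgG, 9 and 5 in RiboLace and 275 and 427 in polysomes, and its log2 fold change of RiboLace over polysomes was -0.39 with a standard error of 0.37. The SMN partners Ddx20, with 4, 4 and 11 reads in SMN and 8 in IgG, and Gemin4, with 2, 0 and 7 and 2, were too low to be tested there.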

How the data were processed

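Per the file headers, the authors deposited 1 table of raw read counts per Ensembl transcript for 8 libraries, with transcript lengths and types. The submitters' processing notes name Trimmomatic 0.36, Bowtie2 2.2.6, SAMtools and the build GRCm38.p4. The treatment of reads matching several places, of identical reads and of read lengths is not stated in them. Each gene was represented by the transcript with the highest library-scaled total, noncoding genes included, and these totals (58985 to 2548966 reads) were the denominators of shares and CPM. MicroRNA names were matched to RefSeq by symbol (1061) or synonym (118). Genes of any type were tested on the libraries of each comparison by the two-sided, robust quasi-likelihood test of edgeR 4.0.16 (R 4.3.3) after TMM scaling and filterByExpr (minimum count 10). A Benjamini-Hochberg adjusted p under 0.05 made a call. Alternatives were DESeq2 1.42.0, limma-voom 3.58.1, other scalings and filters, all 8 libraries in 1 fit, counts summed per gene, each library left out, the replicate number as a block and, added after seeing the data, 1 gene per shared mature strand. The scripts were tested on simulated counts. Folds against groups without reads used a floor of 3 reads. Genes were named by rule: the 15 leading genes and the top 3 of each group, up to 10 largest folds per comparison or the 3 smallest p-values, and up to 4 per list. Mir125b-2, Mir7-1, Mir7-2, the polysome entries with their hosts, and the machinery and host genes that were called were added after their values were seen. Members, lists and tests were chosen with earlier results of these data known. Python 3.11.15 with pandas 2.3.3, scipy 1.17.1, Biopython 1.88 and matplotlib 3.10.9 served for the rest.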

Additional observations from a re-analysis of the deposited data

How the results depend on the processing

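In SMN against IgG 0 microRNA genes were called under every alternative run. In RiboLace against polysomes, 78 were called higher, 208 with no filter, 134 with all 8 libraries in 1 fit, 51 with limma-voom and 34 to 53 with 1 library left out. In SMN against polysomes, 54 were called higher, 178 with no filter (and 2 lower), 106 with a minimum count of 5, 135 with all 8 libraries and 58 to 98 with 1 library left out. With the replicate number as a block the counts were 77 and 52. In the main fits 88 and 54 microRNA genes were tested, beside 5.6 and 21.5% called higher of all genes tested. Of the 78, 77 passed the filter only through RiboLace, and all 54 passed it only through SMN. Nothing is therefore read from these counts. Same-numbered libraries did not deviate together, with a correlation of 0.019 in RiboLace against polysomes and of -0.0067 and 0.028 in SMN against polysomes. RiboLace against polysomes gives only 1 value, because deviations of 2 libraries from their mean mirror each other. The SMN and IgG groups share fewer than 2 numbers, so that no block could be fitted there. The shares in SMN, IgG, RiboLace and polysomes were 0.376, 0.420, 1.09 and 0.0387% over all transcripts as deposited and 0.651, 0.762, 1.71 and 0.0709% with 1 gene per shared mature strand. They were 10432, 13330, 29491 and 853 microRNA reads per 1000000 reads of coding genes. Without the leading gene the share was 0.783% in IgG and 0.0724% in polysomes. At equal depth the numbers of genes with a read were 163, 151 and 164 in SMN, 192 in IgG and 37.8 and 38.9 in polysomes. By CPM in place of CPM per kb, 13 of the 15 leading genes were the same. Of the named genes, Mir5099 lost its call in RiboLace against polysomes in 9 of 11 alternatives, Gm24187 in 2 and Mir20a and Mir26a-2 in 1 each, with limma-voom among them each time, and none changed sign. Scaling moved the median log2 fold change of all genes from -0.55 (library totals) to 0.18 (TMM on coding genes) in SMN against polysomes. Depth limits RiboLace most: 3 reads there are 42.9 and 50.9 CPM, against 1.62 and 1.18 CPM in polysomes.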
